A study of Mus musculus with 12 samples.

Results

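Of 23219 cell barcodes in 6 T cell receptor (TCR) libraries, 1809 carried a TCR beta chain (TRB) and no TCR alpha chain (TRA), and these beta-only barcodes are described here against the 20959 barcodes on which both chains were listed. The members were chosen by a measured value, the presence of at least 1 TRB chain and the absence of any TRA chain among the assembled chains of the barcode, so the absence of TRA is not a result. A further 451 barcodes carried TRA alone. The libraries came from CD45+ cells, the leukocytes, sorted from subcutaneous tumours of C57BL/6 mice (C57BL/6J in another field of the labels) aged 6 to 8 weeks. The tumours grew from a p53 knockout derivative of MC38, a mouse colon carcinoma line, to which the labels also assign a p53 substitution in 2 conflicting notations. Mice received LNP-P20-mAb or LNP-Ctrl, in both cases as 1 intratumoral dose of 40 µg on day 10, when tumours measured about 50 to 100 mm³, and there were 3 TCR libraries per treatment. All groups share the tumour line, the strain and the single injection, and no source used here gives a harvest time. Nothing in the labels ties each library to its own animal, and the p-values therefore cover the spread from library to library, which may be technical.

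In developing T cells of the thymus the beta locus rearranges first, and its chain is tested on the cell surface together with a surrogate alpha chain. The alpha locus rearranges afterwards, and a mature alpha-beta T cell needs both chains to display its receptor and the CD3 complex. The third complementarity-determining region (CDR3), formed where the V, D and J segments of the beta chain are joined, differs from clone to clone and serves as the clone's tag. A barcode with a beta chain alone in a single-cell library therefore names a clone by its beta chain only.

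The sequences below are the TRB CDR3 regions of the receptors on which the results turn, from the first codon of the CDR3 to its last, 5′ to 3′, as listed in the deposited files. Capitals mark the bases at the junction, which lie outside the start shared by at least 20% of the distinct chains with that V segment and the end shared by at least 20% of those with that J segment. The receptors are named by their segments and by the libraries in which they were found, and the alpha CDR3 that accompanied the first of them on paired barcodes is shown with it.
TRBV15 TRBJ1-5, in LNP-P20-mAb 1 and 2: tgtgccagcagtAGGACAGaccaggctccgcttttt
TRAV9-2 TRAJ48, alpha partner of that receptor: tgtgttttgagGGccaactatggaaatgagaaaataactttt
TRBV1 TRBJ2-5, in LNP-P20-mAb 1 and 2: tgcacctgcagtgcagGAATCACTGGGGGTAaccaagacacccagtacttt
TRBV3 TRBJ2-3, in LNP-P20-mAb 1 and 2: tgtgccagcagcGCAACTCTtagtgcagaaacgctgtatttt
TRBV16 TRBJ2-7, in LNP-P20-mAb 1 and 2: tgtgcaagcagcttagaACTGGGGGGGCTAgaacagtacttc
TRBV13-3 TRBJ2-4, in LNP-P20-mAb 3: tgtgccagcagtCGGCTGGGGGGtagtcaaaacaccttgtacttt
TRBV10 TRBJ2-7, in LNP-P20-mAb 3, with no paired barcode: tgtgccagcagctatgaacagtacttc
TRBV20 TRBJ2-1, in LNP-Ctrl 1: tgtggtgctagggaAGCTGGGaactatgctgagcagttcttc
TRBV10 TRBJ2-4, in LNP-Ctrl 1, with no beta-only barcode: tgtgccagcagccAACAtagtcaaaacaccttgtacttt
TRBV26 TRBJ2-4, in LNP-Ctrl 2: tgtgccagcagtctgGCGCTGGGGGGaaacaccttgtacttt
TRBV12-1 TRBJ2-7, in LNP-Ctrl 2: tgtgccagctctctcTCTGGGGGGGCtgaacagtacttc
TRBV13-1 TRBJ2-1, in LNP-Ctrl 3: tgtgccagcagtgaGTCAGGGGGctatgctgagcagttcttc

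The libraries held 5050 to 9982 assembled chains on 2446 to 4869 barcodes, with 85835 to 145847 UMIs (unique molecular identifiers, the tags that count captured transcripts). All 48792 listed chains were TRA or TRB, on every class of barcode, so the files cannot show whether a beta-only cell had a gamma, delta or immunoglobulin chain. Expression data that could show which cells the beta-only barcodes were are not analysed here. LNP-P20-mAb 1 and 2 carry many of the same clones and are not independent, and several results are also given with both averaged or without the receptor most frequent among their beta-only barcodes. Over the 15 pairs of libraries, 308 cell barcodes were listed in both, 49 of them beta-only in at least 1 library, and 0 with the same TRB in both.

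Beta-only barcodes were a small share of all barcodes with a beta chain in each library. They numbered 310 of 4108 (7.55%, exact 95% binomial interval 6.76% to 8.40%), 181 of 2408 (7.52%, 6.49% to 8.64%) and 228 of 3422 (6.66%, 5.85% to 7.55%) in LNP-P20-mAb 1, 2 and 3. The LNP-Ctrl libraries 1, 2 and 3 held 212 of 3761 (5.64%, 4.92% to 6.42%), 523 of 4748 (11.02%, 10.1% to 11.9%) and 355 of 4321 (8.22%, 7.41% to 9.07%). LNP-Ctrl libraries were both the lowest and the highest, and the LNP-P20-mAb libraries lay between them. The mean share was 7.24% ± 0.502 across the LNP-P20-mAb libraries, against 8.29% ± 2.69 across the LNP-Ctrl libraries (SD, n = 3 each; two-sided exact permutation p = 0.7 over 20 assignments, whose smallest p is 0.1). With LNP-P20-mAb 1 and 2 averaged the difference was -1.19 percentage points. Without LNP-Ctrl 2 the difference between treatments reversed, with LNP-P20-mAb 0.316 percentage points higher, so its direction rests on that library. The intervals cover counting error only.

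Depth of the alpha chain differed between the same libraries. The median number of TRA UMIs on paired barcodes was 8, 9 and 9 in LNP-P20-mAb 1, 2 and 3 and 10, 6 and 6 in LNP-Ctrl 1, 2 and 3. The library with the highest TRA median, LNP-Ctrl 1, had the lowest beta-only share, and both libraries at 6 had the highest shares. The part of depth in the beta-only share was not tested.

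The members stand at the end of a range of TRA counts. Over all libraries 1809 barcodes with TRB had 0 TRA UMIs, 558 had 1 and 1299 had 2, and the first of these classes is the beta-only class. The barcodes just outside the rule, with 1 TRA UMI, were fewer in every library, with 2.15 to 4.93 beta-only barcodes for each of them. Among barcodes with more than 20 TRB UMIs the same 3 classes held 439, 111 and 278 barcodes. Counting a TRA of 1 UMI as absent would raise the mean beta-only share over the 6 libraries to 10.1%, against 7.77% by the rule.

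**Figure D1:**
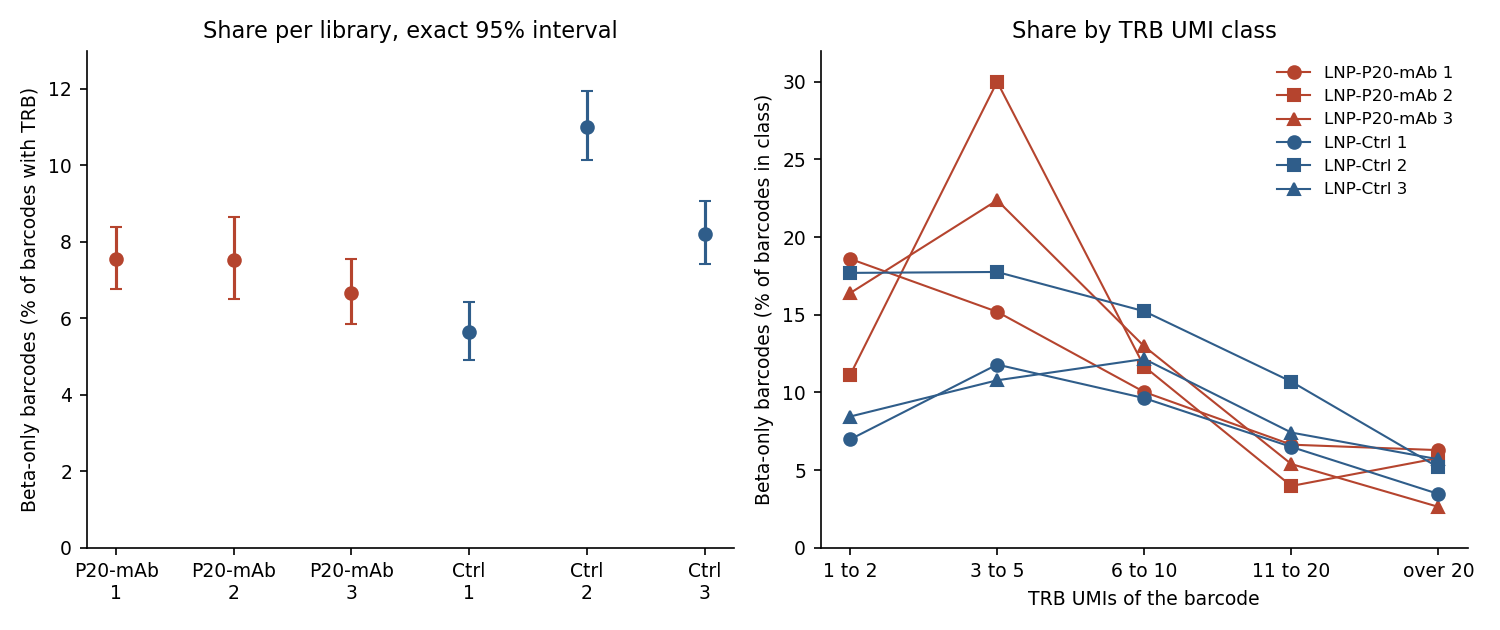
Left, beta-only barcodes as a percentage of all barcodes with a TRB chain in each library, with exact 95% binomial intervals. Right, the same percentage among barcodes grouped by their number of TRB UMIs, 1 line per library, from 2.64% to 6.29% at over 20 UMIs and from 10.8% to 30% at 3 to 5 UMIs.

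Beta-only barcodes carried fewer TRB transcripts than paired barcodes of the same library. The median number of TRB UMIs was 16 on beta-only and 19 on paired barcodes in LNP-P20-mAb 1, 13 and 21 in LNP-P20-mAb 2, and 9 and 19 in LNP-P20-mAb 3. In LNP-Ctrl 1 the medians were 14.5 on beta-only and 21 on paired barcodes, in LNP-Ctrl 2 they were 10 and 14, and in LNP-Ctrl 3 they were 12 and 15. The beta-only median was the lower of the pair in 6 of 6 libraries, by a mean log2 ratio of -0.56 ± 0.30 (SD, n = 6), with a two-sided exact sign-flip permutation p of 0.031, the smallest that 64 flips can give. Adjusted by Benjamini-Hochberg over the 8 comparisons of beta-only with paired barcodes in this family, the p was 0.0625, which did not pass 0.05. With LNP-P20-mAb 1 and 2 averaged the log2 ratio was -0.58, and 5 units cannot reach a p under 0.0625.

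The classes overlapped widely in spite of the lower medians. Barcodes with more than 20 TRB UMIs made up 38.7%, 39.8% and 17.1% of beta-only barcodes in LNP-P20-mAb 1, 2 and 3, and 31.1%, 13.6% and 20% in LNP-Ctrl 1, 2 and 3. Among paired barcodes the same share ran up to 52.7%, in LNP-P20-mAb 2, with a low of 29.6% for LNP-Ctrl 3. A single TRB UMI was seen on 1 of the 1809 beta-only barcodes, in LNP-Ctrl 2. Paired barcodes with a single TRB UMI numbered 10, 10 and 16 in LNP-P20-mAb 1, 2 and 3, and 8, 27 and 20 in LNP-Ctrl 1, 2 and 3. The highest TRB UMI count of a beta-only barcode was 87, in LNP-P20-mAb 1.

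Seen from the other side, the share without an alpha chain was lower among barcodes with many TRB UMIs. The beta-only share averaged 13.2% ± 5.01 at 1 to 2 TRB UMIs, 17.99% ± 7.23 at 3 to 5, 11.9% ± 2.05 at 6 to 10, 6.77% ± 2.26 at 11 to 20 and 4.84% ± 1.45 at over 20 (SD over the 6 libraries, a description with no test). In each of the 6 libraries the share at over 20 UMIs was below that at 3 to 5. At 1 to 2 UMIs the classes held 27 to 113 barcodes, so that those shares rest on few barcodes. Even at over 20 TRB UMIs, 120 of 1908 barcodes in LNP-P20-mAb 1 and 71 of 1371 in LNP-Ctrl 2 were beta-only.

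**Figure D2:**
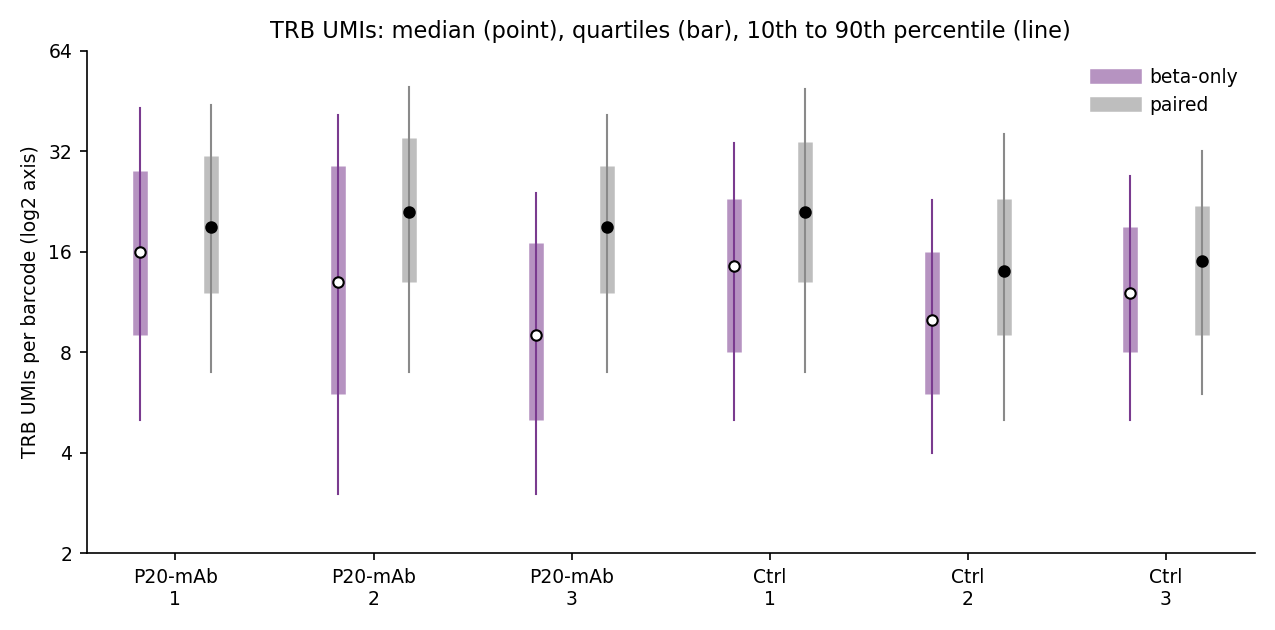
TRB UMIs per barcode on a log2 axis for beta-only barcodes (purple, left of each pair) and paired barcodes (grey) in each library. Points are medians, thick bars span the quartiles and thin lines the 10th to 90th percentiles, and the beta-only median lies below the paired median in 6 of 6 libraries.

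The lower count was also present when the receptor was held constant. Receptors that occurred on both kinds of barcode numbered 43, 36 and 53 in LNP-P20-mAb 1, 2 and 3 and 44, 60 and 40 in LNP-Ctrl 1, 2 and 3. Within them the log2 ratio of the beta-only to the paired median averaged -0.75, -1.16 and -0.91 in the LNP-P20-mAb libraries and -0.57, -0.87 and -0.24 in the LNP-Ctrl libraries. It was below 0 in 6 of 6 libraries, with a mean of -0.75 ± 0.32 (SD, n = 6; two-sided exact sign-flip permutation p = 0.031, adjusted 0.0625 over 8 comparisons). The difference between treatments in this ratio was -0.39 (exact permutation p = 0.2, adjusted 0.8 over 16 comparisons of the treatments).

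Reads per UMI differed little in size. The median was 129, 244 and 151 reads per UMI for the TRB of beta-only barcodes in LNP-P20-mAb 1, 2 and 3, against 133, 249.95 and 158 for paired barcodes. In LNP-Ctrl 1, 2 and 3 it was 147, 173 and 208 on beta-only barcodes, against 154, 176 and 213 on paired ones. The beta-only value was lower in 6 of 6 libraries by 5.21 ± 1.59 reads per UMI (SD, n = 6; exact sign-flip permutation p = 0.031, adjusted 0.0625). Libraries differed from each other by far more than the classes did.

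None of the beta-only barcodes carried a second beta chain. The count was 0 of 1809, which allows a share of up to 0.166%, while 1844 paired barcodes carried 2 TRB chains. By library 14.1%, 9.47% and 10.99% of paired barcodes had 2 TRB chains in LNP-P20-mAb 1, 2 and 3, and 6.09%, 7.15% and 5.77% in LNP-Ctrl 1, 2 and 3. Of the 451 alpha-only barcodes 0 carried a second alpha chain, whereas paired barcodes carried 2 TRA chains in 7.41% to 21.9% of cases by library. A listing with no second chain on any barcode of 1 chain type fixes the direction of this difference, so it is given with no test, and the part of the filtering before deposit was not tested. Barcodes with 1 TRA UMI, just outside the rule, had 2 TRB chains in 3.03% to 11.3% of cases.

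The TRB of each beta-only barcode, defined by its V segment, J segment and CDR3 bases, was looked up on the paired barcodes of its library. A match shows that the same TRB occurs with an alpha chain, not that the beta-only cell carried that alpha chain. For paired barcodes the same lookup was made on the other paired barcodes. The TRB was found for 731 of 1809 beta-only barcodes (40.4%) and not for 1078. By library 262 of 310 (84.5%), 147 of 181 (81.2%) and 97 of 228 (42.5%) were found in LNP-P20-mAb 1, 2 and 3, and 68 of 212 (32.1%), 106 of 523 (20.3%) and 51 of 355 (14.4%) in LNP-Ctrl 1, 2 and 3.

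The values of paired barcodes took the same order. They were 87.8%, 86.1% and 62.1% in LNP-P20-mAb 1, 2 and 3, and 52.2%, 27.6% and 12.8% in LNP-Ctrl 1, 2 and 3. Beta-only barcodes were found less often than paired ones in 5 of 6 libraries and slightly more often in LNP-Ctrl 3, with a mean difference of -8.93 ± 8.94 percentage points (SD, n = 6; two-sided exact sign-flip permutation p = 0.0625, adjusted 0.1 over 8 comparisons). This difference did not pass the test. It was -9.90 percentage points with LNP-P20-mAb 1 and 2 averaged and -10.5 without the TRBV15 TRBJ1-5 receptor, most frequent among their beta-only barcodes. With paired barcodes weighted to the TRB UMI classes of beta-only ones it was -7.11 percentage points. With only barcodes of exactly 1 TRB chain it was -7.82 percentage points.

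Between treatments the share of beta-only barcodes whose TRB was found on a paired barcode did not overlap. It averaged 69.4% ± 23.3 across LNP-P20-mAb libraries, against 22.2% ± 9.02 across LNP-Ctrl libraries (SD, n = 3 each; exact permutation p = 0.1, the smallest possible, adjusted 0.8 over 16 comparisons). With LNP-P20-mAb 1 and 2 averaged the LNP-P20-mAb mean was 62.7%, and without the TRBV15 TRBJ1-5 receptor it was 65.6%, with 78.9% in LNP-P20-mAb 1 and 75.5% in LNP-P20-mAb 2. The gap between beta-only and paired barcodes was -9.23 ± 8.94 percentage points in LNP-P20-mAb libraries, against -8.64 ± 10.9 in those of LNP-Ctrl (exact permutation p = 1, adjusted 1), which does not show that the gaps were equal. LNP-P20-mAb 1 and 2, the pair that shares clones, had the highest shares of both classes, and the median TRB UMIs of found and not found members were 16 and 15 in LNP-P20-mAb 1 but 9 and 12 in LNP-Ctrl 3.

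**Figure D3:**
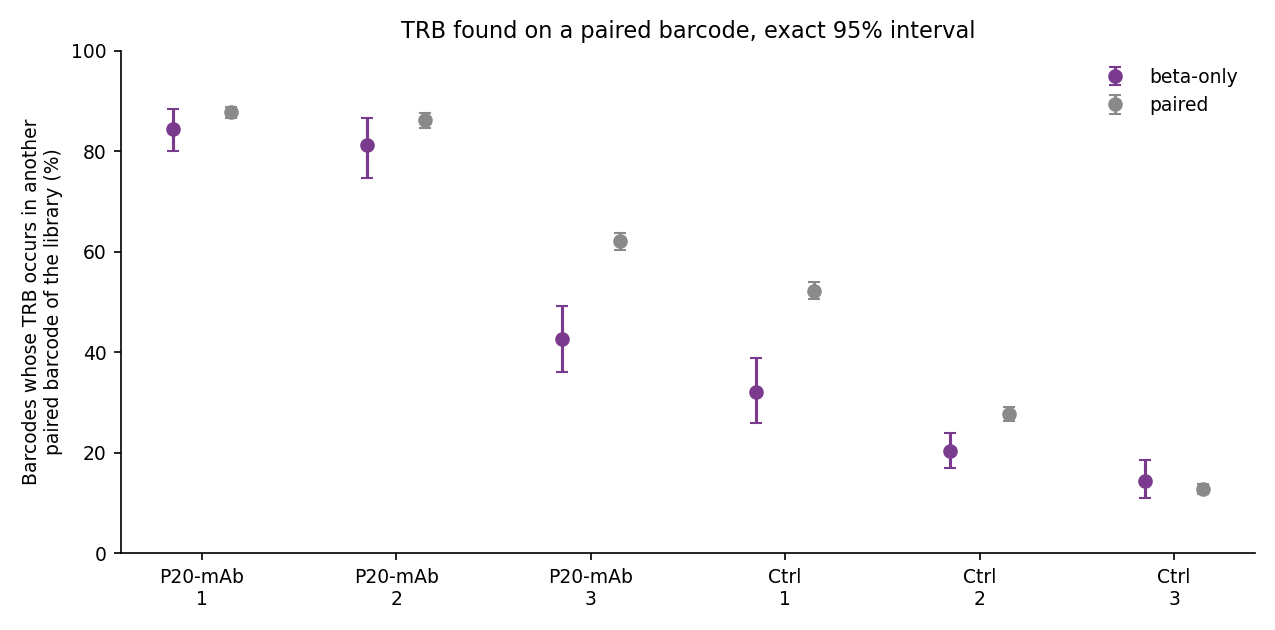
Percentage of beta-only barcodes (purple, left of each pair) and of paired barcodes (grey) whose TRB occurs on another paired barcode of the same library, with exact 95% binomial intervals. The 3 LNP-P20-mAb libraries lie between 42.5% and 84.5% for beta-only barcodes and the 3 LNP-Ctrl libraries between 14.4% and 32.1%.

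Of the 731 members whose TRB was found, 525 shared it with paired barcodes of 1 alpha combination and 204 with paired barcodes of several, while for the other 2 it was the second TRB of a paired barcode. The clonotype numbers deposited with the chains placed 226 of the 731 together with a paired barcode of the same TRB and 505 in a clonotype without one. In all, 1263 of 12707 deposited clonotypes held beta-only barcodes alone. Only 8 of the 1078 members with no match in their own library had one on a paired barcode of another library.

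The 1809 members carried 1322 distinct TRB receptors, 278 with and 1044 without a paired barcode in the library. Of the receptors without one, 32 occurred on 2 or more beta-only barcodes, 66 barcodes in all, and the rest on a single barcode. A single receptor had 3 or more beta-only barcodes and no paired barcode, TRBV10 TRBJ2-7 in LNP-P20-mAb 3, with 4 barcodes of 4, 7, 9 and 16 TRB UMIs. Its CDR3 of 9 residues is the shortest shown above and holds 0 bases outside the shared V start and J end.

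Single receptors differed in how often they lacked an alpha chain. The TRBV15 TRBJ1-5 receptor, whose paired barcodes carried TRAV9-2 TRAJ48, was beta-only on 83 of 347 barcodes (23.9%) in LNP-P20-mAb 1 and on 42 of 204 (20.6%) in LNP-P20-mAb 2, and was seen in no other library. It made up 26.8% and 23.2% of the beta-only barcodes of these libraries, against 6.95% and 7.27% of their paired barcodes. Its beta chain was abundant, with a median of 30 TRB UMIs on beta-only and 40 on paired barcodes in LNP-P20-mAb 1, and 30 and 43 in LNP-P20-mAb 2. More than 20 TRB UMIs were present on 61 of the 83 beta-only barcodes in LNP-P20-mAb 1 and on 30 of the 42 in LNP-P20-mAb 2.

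This receptor weighs on the values of its libraries. Without it beta-only barcodes made up 6.04% of LNP-P20-mAb 1 and 6.31% of LNP-P20-mAb 2 barcodes with TRB, and the median TRB UMIs of their beta-only barcodes were 13 and 10. The mean log2 ratio of TRB UMIs over the 6 libraries was then -0.65, still below 0 in all of them (exact sign-flip permutation p = 0.031). These values without the receptor were computed after the data had been seen.

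Among the other leading receptors of LNP-P20-mAb 1 and 2, TRBV1 TRBJ2-5 was beta-only on 27 of 338 barcodes (7.99%) in the first library and on 14 of 127 (11.0%) in the second. TRBV3 TRBJ2-3 was beta-only on 25 of 273 (9.16%) and on 22 of 185 (11.9%). TRBV16 TRBJ2-7, paired with TRAV9N-3, was beta-only on 13 of 58 (22.4%) and on 6 of 48 (12.5%). Across the 21 receptors with 20 or more barcodes in both libraries, the beta-only shares were related with a Pearson r of 0.720 and a Spearman rho of 0.466, and with 0.574 and 0.382 when the TRBV15 receptor was left out. The points share the libraries' depth and the clones, and the values are a description.

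In the remaining libraries the receptors with most beta-only barcodes were smaller in number. TRBV13-3 TRBJ2-4 in LNP-P20-mAb 3 was beta-only on 9 of 59 barcodes (15.3%), with medians of 5 TRB UMIs on beta-only and 15 on paired barcodes. In LNP-Ctrl 2, TRBV26 TRBJ2-4 was beta-only on 13 of 81 (16.05%) and TRBV12-1 TRBJ2-7 on 11 of 104 (10.6%). The large TRBV20 TRBJ2-1 receptor of LNP-Ctrl 1 was beta-only on 7 of 495 barcodes, or 1.41%. In LNP-Ctrl 3 the leading 3 receptors had 4 beta-only barcodes each. TRBV13-1 TRBJ2-1 was beta-only on 4 of 11 barcodes, TRBV17 TRBJ1-1 on 4 of 19 and TRBV3 TRBJ2-2 on 4 of 55, with medians of 2, 4 and 6 TRA UMIs on their paired barcodes.

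Some large receptors had no beta-only barcode. Of 97 receptors with 20 or more barcodes, counted library by library, 25 had none, and the median share was 3.90% with a range of 0 to 23.9%. The 21 receptors that reached 20 barcodes in both LNP-P20-mAb 1 and 2 are counted in each of these libraries, so the 97 entries are not independent. TRBV10 TRBJ2-4 in LNP-Ctrl 1 was paired on 73 of 73 barcodes, with a median of 39 TRA and 11 TRB UMIs. The 0 of 73 allows a share of up to 4.11%. Over the 97 entries the share had a Spearman rho of -0.25 with the median TRA UMIs and 0.03 with the median TRB UMIs of paired barcodes, again as a description.

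By size, receptors of 20 or more barcodes had a smaller beta-only share than receptors seen on a single barcode. The mean over libraries was 5.81% ± 2.36 for the large receptors and 8.93% ± 1.49 for the single ones (SD, n = 6), and it was 10.6% ± 3.20 at 2 to 4 barcodes and 6.36% ± 2.56 at 5 to 19. The large receptors were lower in 6 of 6 libraries, by 3.12 ± 1.53 percentage points (exact sign-flip permutation p = 0.031, adjusted 0.0625). In LNP-P20-mAb 1, 2 and 3 the values were 7.77%, 7.46% and 3.88% for large and 9.21%, 9.30% and 8.47% for single receptors. In LNP-Ctrl 1, 2 and 3 they were 2.33%, 8.07% and 5.33% for large and 7.50%, 11.5% and 7.56% for single ones. The exact 95% intervals of both sizes were apart in LNP-P20-mAb 3 and LNP-Ctrl 1 and overlapped in the other libraries. In LNP-Ctrl 3 the large value rests on 4 of 75 barcodes from 2 receptors (interval 1.47% to 13.1%).

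For members whose TRB was found on paired barcodes, the alpha segment of the partner was read from those barcodes. Over the 11490 barcodes with such a partner, 729 (6.34%) were beta-only. Shares of single TRAV segments are pooled over libraries that differ in their beta-only share, and the segments are spread unevenly over the libraries, so the range over libraries with 20 or more barcodes of the segment is given beside each. TRAV9-2 stood at 19.5% (143 of 735), or 9.78% without the TRBV15 receptor, with 4.00% in LNP-Ctrl 1 as the lowest and 23.1% in LNP-P20-mAb 1 as the highest of 5 libraries. TRAV6-7-DV9 stood at 13.9% (25 of 180) and ran from 8.16% to 15.4% over 3 libraries. TRAV6D-6 stood at 12.1% (28 of 232) and ran from 10.5% to 15.2% over 5 libraries. TRAV9N-3 stood at 12.5% (39 of 312) and ran from 4.55% to 18.1% over 3 libraries. TRAV7-3 stood at 0.772% (4 of 518) and ran from 0 to 0.962% over 4 libraries, and TRAV7-4 at 1.40% (3 of 215) ran from 0 to 2.78% over 3. The median TRA UMIs of paired barcodes were 15 for TRAV7-3 and 6 for TRAV6D-6. TRAV12N-2 also had a median of 6, at a share of 4.27% (22 of 515), and TRAV9-2 and TRAV9N-3 had 8. Within each library the share and the median TRA UMIs of its TRAV segments had a Spearman rho below 0, at -0.51, -0.45 and -0.66 over 26, 21 and 18 segments in LNP-P20-mAb 1, 2 and 3, and at -0.46, -0.34 and -0.74 over 21, 15 and 5 segments in LNP-Ctrl 1, 2 and 3. The segments of a library share its depth and clones, and these values are a description.

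Taken by family, partners of the TRAV7 family were beta-only on 99 of 3288 barcodes (3.01%) and partners of the TRAV9 family on 213 of 1406 (15.1%), or 10.3% without the TRBV15 receptor. In LNP-P20-mAb 1, 2 and 3 the TRAV9 share without it was 15.4%, 10.8% and 11.4%, against 4.13%, 4.91% and 1.42% for TRAV7. In LNP-Ctrl 1, 2 and 3 it was 6.30%, 6.32% and 7.55%, against 1.18%, 6.48% and 8.20% for TRAV7. TRAV9 was thus the higher family in 4 libraries and the lower in LNP-Ctrl 2 and 3. These groupings were chosen after the data had been seen and carry no test, and TRAV names that carry a D or an N belong to near-identical copies, between which reads could be split.

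**Figure D4:**
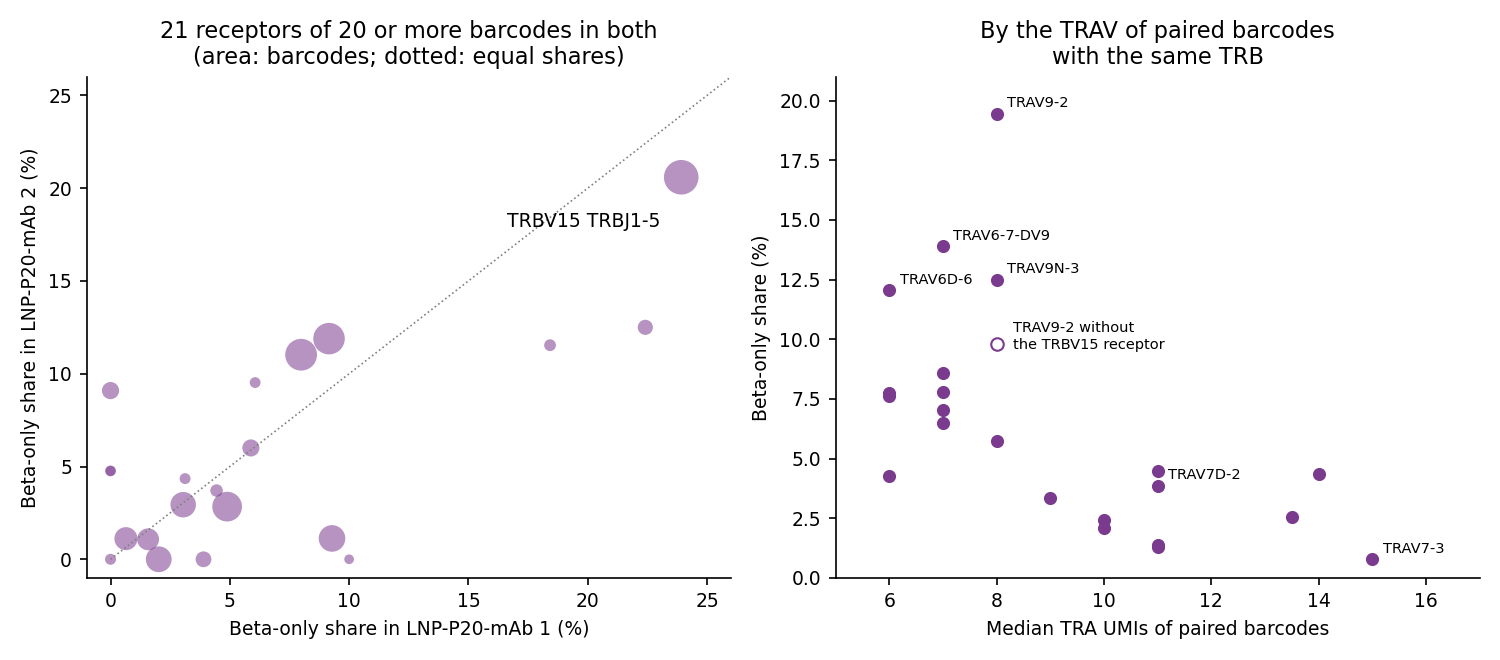
Left, beta-only share of the 21 receptors with 20 or more barcodes in both LNP-P20-mAb 1 and LNP-P20-mAb 2, with the area of a point proportional to the barcodes and the TRBV15 TRBJ1-5 receptor at 23.9% and 20.6%. Right, beta-only share by the TRAV of paired barcodes with the same TRB against the median TRA UMIs of those barcodes, for the 22 TRAV segments with 150 or more barcodes, pooled over the 6 libraries, with an open circle for TRAV9-2 at 9.78% without the TRBV15 receptor.

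Members without a match could differ by a single base from a paired receptor. Of 1044 such beta-only receptors, 17 (1.63%) lay within 1 base of a paired receptor of the same V, J and length in their library, against 134 of 10916 paired receptors of 1 barcode (1.23%). The 2 pairs below had the largest paired clones among them, and capitals mark the base at which the members of a pair differ.
TRBV15 TRBJ2-3 in LNP-P20-mAb 1, beta-only: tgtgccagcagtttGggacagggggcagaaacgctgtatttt
TRBV15 TRBJ2-3 in LNP-P20-mAb 1, paired: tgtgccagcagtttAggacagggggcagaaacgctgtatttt
TRBV19 TRBJ1-1 in LNP-Ctrl 2, beta-only: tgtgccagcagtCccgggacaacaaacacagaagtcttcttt
TRBV19 TRBJ1-1 in LNP-Ctrl 2, paired: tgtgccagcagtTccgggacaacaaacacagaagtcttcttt
The first beta-only receptor had 9 TRB UMIs on 1 barcode beside 5 paired barcodes with a median of 20. The second had 14 TRB UMIs on 1 barcode beside 7 paired barcodes with a median of 16.

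No V or J segment passed the test of usage between beta-only and paired receptors, each distinct receptor being counted once per library. Of 34 TRBV and TRBJ segments tested, 0 (0.0%) passed an adjusted p of 0.05 in edgeR's quasi-likelihood test with the library as a block, and 2 had an unadjusted p under 0.05. DESeq2 also called 0, with 1 under an unadjusted 0.05. The 3 highest changes were those of TRBV15 (log2 0.41 ± 0.23, SE), TRBV17 (0.40 ± 0.27) and TRBV16 (0.29 ± 0.14). The 3 lowest were those of TRBV23 (-2.03 ± 0.83), TRBV30 (-1.41 ± 0.94) and the ambiguous annotation TRBV12-2+TRBV13-2 (-0.37 ± 0.13), and the lowest adjusted p of all segments was 0.303. TRBV23 was carried by 2 distinct beta-only receptors and 75 paired ones. When barcodes were counted in place of receptors, TRBV15 and TRBJ1-5, the segments of the TRBV15 receptor above, passed the test as more used by beta-only barcodes.

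The segments most used by beta-only receptors were TRBV13-1 with 9.21% ± 4.08 of distinct receptors, TRBV12-2+TRBV13-2 with 8.38% ± 2.31, TRBV5 with 7.54% ± 2.61, TRBV13-3 with 6.85% ± 1.35 and TRBV16 with 6.65% ± 1.49 (SD over 6 libraries). Paired receptors used them at 7.32% ± 2.56, 9.57% ± 1.61, 7.59% ± 0.846, 6.69% ± 0.699 and 4.94% ± 1.05. In the Vβ8 group, TRBV13-1, TRBV13-2 and TRBV13-3, 0 of 3 passed the test of beta-only against paired receptors, and in the Vβ5 group, TRBV12-1 and TRBV12-2, 0 of 2. Invariant natural killer T cells pair a fixed alpha chain with TRBV13-2, TRBV29 or TRBV1, and of these 0 of 3 passed, with log2 changes of 0.05, 0.02 and 0.21. The label TRBV13-2 alone covers 147 distinct receptors, while 1255 carry the label TRBV12-2+TRBV13-2, with a log2 change of -0.37 ± 0.13 that did not pass. The lists leave out whatever use of TRBV13-2 or TRBV12-2 carries that label. Among receptors of 20 or more barcodes, those with the combined label begin with the residues CASG or CASV. Those labelled TRBV12-2 begin with CASS. Which segment the combined label stands for was not tested. Mucosal-associated invariant T cells favour TRBV13-2, TRBV13-3 and TRBV19, and again 0 of 3 passed, TRBV19 having the lowest change at -0.25 ± 0.13.

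Counted as distinct receptors, beta-only receptors used TRBV3 and TRBV31 less in LNP-P20-mAb than in LNP-Ctrl tumours. TRBV3 was carried by 3 of 91, 4 of 69 and 4 of 174 distinct beta-only receptors in LNP-P20-mAb 1, 2 and 3 (3.30%, 5.80% and 2.30%), and by 15 of 186, 36 of 469 and 37 of 333 in LNP-Ctrl 1, 2 and 3 (8.06%, 7.68% and 11.1%). TRBV31, the segment that lies downstream of the other beta segments in inverted orientation, was carried by 2, 1 and 3 receptors (2.20%, 1.45% and 1.72%) in LNP-P20-mAb libraries, against 8, 30 and 16 (4.30%, 6.40% and 4.80%) in those of LNP-Ctrl. Neither segment overlapped between the treatments. The same held for segments that did not pass, which were TRBV2, TRBV12-2, TRBV13-1, TRBV14, TRBV20, TRBV29, TRBJ1-5, TRBJ1-6, TRBJ2-1 and TRBJ2-5. Absence of overlap therefore does not set TRBV3 and TRBV31 apart. TRBV3 and TRBV31 were the 2 of 32 segments (6.25%) that passed, with log2 changes of -1.42 ± 0.39 (SE; edgeR adjusted p = 0.0135) and -1.58 ± 0.38 (edgeR adjusted p = 0.0444). With beta-only barcodes counted in place of receptors, TRBV3 turned to a log2 change of 0.0749 (edgeR adjusted p = 0.846) and TRBV31 was at -1.83 (edgeR adjusted p = 0.0510), while TRBV15 and TRBJ1-5 passed as higher in LNP-P20-mAb. With LNP-P20-mAb 1 and 2 summed as 1 library TRBV3 passed (edgeR adjusted p = 0.0387) and TRBV31 did not (edgeR adjusted p = 0.0910).

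The paired receptors of the same libraries gave TRBV3 at 4.06%, 4.08% and 1.26% in LNP-P20-mAb libraries, against 7.33%, 9.46% and 9.18% in those of LNP-Ctrl. Paired TRBV31 was also lower, at 3.41%, 2.49% and 2.80% in LNP-P20-mAb libraries, against 4.70%, 4.73% and 5.47% in those of LNP-Ctrl. No segment passed the test of a difference between the classes in the treatment effect (0 of 34, 1 under an unadjusted p of 0.05, lowest edgeR adjusted p 0.501). Both calls depend on single libraries, since 0 of 32 segments passed without LNP-P20-mAb 1 or 3 or without LNP-Ctrl 1 or 3, and TRBV3 alone without LNP-P20-mAb 2 or LNP-Ctrl 2. DESeq2 called 0, with 5 segments under an unadjusted p of 0.05 and a lowest adjusted p of 0.0571. TRBV13-1 was the segment with the highest change, at 15.4%, 13.04% and 8.05% in LNP-P20-mAb libraries, against 4.84%, 7.04% and 6.91% in those of LNP-Ctrl, a log2 change of 0.75 ± 0.30 that did not pass (edgeR adjusted p = 0.148).

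**Figure D5:**
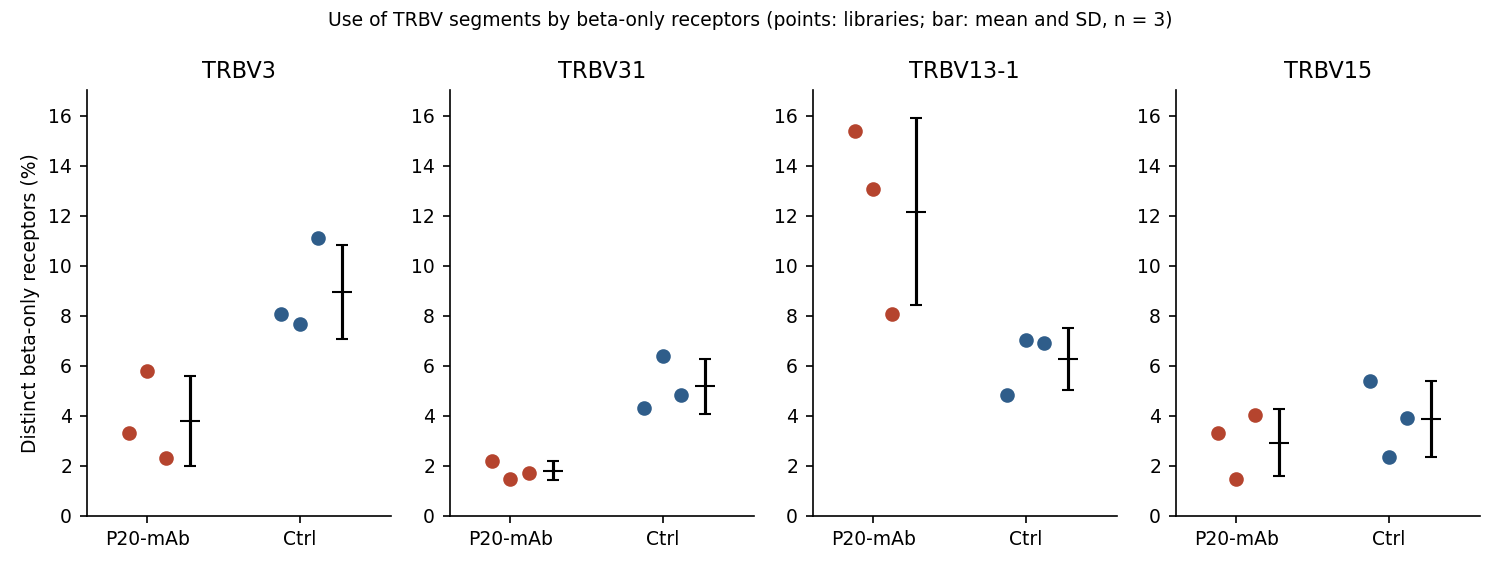
Percentage of distinct beta-only receptors that use TRBV3, TRBV31, TRBV13-1 and TRBV15 in each LNP-P20-mAb library (red, left) and each LNP-Ctrl library (blue, right), with the mean and SD of 3 libraries beside the points. TRBV3, TRBV31 and TRBV13-1 do not overlap between treatments, nor do several segments not shown that did not pass the test, while TRBV15 does.

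The CDR3 loops of beta-only receptors were about as long as those of paired ones. Their mean length over distinct receptors was 14.2, 14.04 and 14.1 residues in LNP-P20-mAb 1, 2 and 3, against 13.97, 13.99 and 14.05 for paired receptors. In LNP-Ctrl 1, 2 and 3 it was 14.1, 13.98 and 13.8 residues, against 14.01, 13.98 and 13.9. The difference was 0.0465 ± 0.124 residues (SD, n = 6; exact sign-flip permutation p = 0.469, adjusted 0.625), and between 91.3% and 92.8% of beta-only receptors in each library had 12 to 16 residues.

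The constant and D segments did not separate the classes either. TRBC1, the first of both beta constant genes, was used by 30.5% ± 2.23 of beta-only and 30.8% ± 2.55 of paired receptors (SD, n = 6 libraries; exact sign-flip permutation p = 0.688, adjusted 0.786). A D segment was named for 24.3% ± 4.11 of beta-only and 24.4% ± 0.959 of paired receptors (exact sign-flip permutation p = 0.969 over 6 libraries, adjusted 0.969). These p-values do not show that the classes are equal.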

How the data were processed

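The 6 TCR libraries were analysed, with treatment and replicate number read from the sample titles. The deposited files list assembled chains with their cell barcode, segments, CDR3 and raw counts of reads and UMIs per chain, made by the authors with Cell Ranger 8.0.1 per the submitters' processing notes. Mouse builds appear in these notes with no stated role, and coordinates are left out. The authors' marks for a productive, full-length, high-confidence chain in a called cell were set on all chains, and chains dropped before deposit leave no trace.

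Repeat listings of a chain on a barcode counted once. Barcodes with 2 TRB chains, which can be doublets, were kept. The chain of most UMIs stood for the barcode in UMI and CDR3 comparisons, and both chains were counted in segment usage. In the lookup of matches, either TRB chain of a paired barcode could be found. No doublet caller was run. The library was the replicate. Beta-only and paired values of a library were compared by exact sign-flip permutations over 6 libraries and treatments by exact permutations over 20 assignments, two-sided, adjusted by Benjamini-Hochberg over 8 and 16 comparisons, without the share with 2 TRB chains, which was 0 on beta-only barcodes in every library and so got no test. Intervals are exact Clopper-Pearson 95% intervals, and the share that a count of 0 allows is that of 3 counts.

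Segment usage was tested with edgeR 4.0.16 in R 4.3.3 on distinct receptors, with the number of receptors as library size, for segments with at least 30 receptors (10 between treatments), and DESeq2 1.42.0 was an alternative. For the treatments DESeq2 could not fit a dispersion trend and used each segment's own estimate. The standard error was taken as the size of the log2 change divided by the square root of F. edgeR keeps a p-value no lower than Poisson counting alone allows. For a segment that varied less than that, the standard error is narrower than the p-value implies. Such segments included TRBV31 between treatments and TRBV16, TRBV19 and TRBV12-2+TRBV13-2 between beta-only and paired receptors. The test was tested on simulated data. Tables were made in pandas 2.3.3 and numpy 2.4.6, tests in scipy 1.17.1 and figures in matplotlib 3.10.9, under Python 3.11.15. Named were the segments that passed or else the 3 highest and 3 lowest changes, the 5 TRBV most used by beta-only receptors, 4 lists of TRBV segments, the 3 receptors with most beta-only barcodes per library, receptors with 3 or more beta-only and no paired barcode, and, from 20 barcodes on, the 3 highest and 3 lowest beta-only shares. Not all receptors named by this rule are printed, while TRBV13-1 between treatments was chosen after its values were seen. The members and lists were chosen with earlier results of these data known. The 6 gene expression samples were left out.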

Additional observations from a re-analysis of the deposited data

Results flagged for a closer look

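The share of distinct receptors with TRBC1 moved in opposite directions in the treatments. It was higher in beta-only than in paired receptors in 3 of 3 LNP-P20-mAb libraries, by 1.19 ± 0.933 percentage points (SD, n = 3), and lower in 3 of 3 LNP-Ctrl libraries, by 1.89 ± 1.75 points. In LNP-P20-mAb 1, 2 and 3 it differed by 2.26, 0.590 and 0.712 points on 91, 69 and 174 beta-only receptors. In LNP-Ctrl 1, 2 and 3 it differed by -3.91, -0.801 and -0.968 points on 185, 464 and 333. Since 1 of 69 receptors is 1.45%, the direction in LNP-P20-mAb 2 rests on less than 1 receptor. The difference between the treatments was 3.08 percentage points (two-sided exact permutation p = 0.1, the smallest that 3 against 3 libraries allow, adjusted 0.8 over 16 comparisons), so it did not pass the test.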

How the results depend on the processing

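Of 357 values recomputed under another setting, 283 kept their direction and their side of the threshold (or, with no test, lay within 1 SD). Exact permutations between treatments cannot go below a p of 0.1, or 0.25 with libraries paired by replicate number. Values tested in this way could change direction but not their side of the threshold. The 283 is therefore not a count of results that could have failed. The cause of the changes in the other values was not tested except where fewer units limit the test. With LNP-P20-mAb 1 and 2 averaged, 5 units cannot go below an exact permutation p of 0.0625, and the differences between beta-only and paired barcodes were -0.58 for TRB UMIs (log2), -0.71 for TRB UMIs at the same receptor (log2), -5.34 reads per UMI and -3.42 percentage points for large against single receptors. The same limit holds without any 1 library, where these values ran from -0.62 to -0.46, from -0.85 to -0.67, from -5.64 to -4.82 and from -3.46 to -2.71, with no change of sign.

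With a TRA of 1 UMI counted as absent the mean beta-only share was 10.1% in place of 7.77%. Uncalled differences that changed sign were those of CDR3 length with each barcode counted once (-0.0604 residues between classes and -0.143 between treatments), the share with a named D segment with exactly 1 TRB chain (0.942 points), reads per UMI between treatments with a TRA of 1 UMI as absent (1.02) and the matched share between treatments (0.366 points with exactly 1 TRB chain, 0.665 with a TRA of 1 UMI as absent). Leaving out 1 library turned the sign of the beta-only share between treatments (-2.37 to 0.316 points), reads per UMI between treatments (-1.35 to 0.499), the matched share between treatments (-6.36 to 4.55 points), the TRBC1 share (-0.874 to 0.36 points) and the named D segment share (-1.46 to 0.599 points).

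Segment usage between beta-only and paired receptors gave 2 calls in place of 0 when barcodes were counted, TRBV15 (log2 0.91) and TRBJ1-5. Between treatments the 2 calls became 0 with DESeq2, TRBV3 alone with LNP-P20-mAb 1 and 2 summed, TRBV3 alone (log2 -2.49) with only receptors that had no paired barcode (a setting added after seeing the data) and 0 to 1 without any 1 library. With barcodes counted 2 other segments, TRBV15 and TRBJ1-5, were called as higher and TRBV3 turned to a log2 change of 0.0749 (edgeR adjusted p = 0.846), its other alternatives lying between -2.49 and -1.02. A fit with the replicate number as a block gave 1 call, TRBV3 (TRBV31 had an edgeR adjusted p of 0.108). Deviations of same-numbered libraries had r = 0.09, 0.19 and -0.02, within the range of differently numbered ones (-0.46 to 0.42). These few values cannot decide whether the numbers pair the samples. Depth limits the shares of receptors of few barcodes and of the class of 1 to 2 TRB UMIs.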
